A study of Rattus norvegicus with 8 samples.

Results

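The enzymes that build phosphatidylcholine and phosphatidylethanolamine were followed in rat liver through 8 genes, Pcyt1a, Pcyt2, Chka, Chkb, Pemt, Cept1, Chpt1 and Etnk1, out of 14217 genes named on the arrays. They were taken by name, as the enzymes of the choline branch, the ethanolamine branch and the route that converts one lipid into the other. Every probe set that carried one of these symbols alone was used, 12 in all, and a probe set is a small group of probes directed at a transcript. The pathway itself was chosen by its log2 differences between hydrogen water and control on these arrays, which were already in view. Their differences and adjusted p-values are therefore a description of where each probe set lies among all those tested, and are no evidence about the pathway.

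The hydrogen water group consisted of male Sprague-Dawley rats that drank water with 0.7 mM dissolved hydrogen for 4 weeks, and the control group drank sterilized distilled water for the same time. Sprague-Dawley is an outbred laboratory strain. All rats were 4 weeks old on arrival and 8 weeks old at the end, ate one commercial diet freely, and were anaesthetized with diethyl ether before the liver was taken. Each group held 8 animals in the study and is represented here by 4 oligonucleotide arrays. Which animals gave the RNA, and whether it was pooled, is not in the labels, so each p-value measures the spread between arrays only.

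Phosphatidylcholine and phosphatidylethanolamine are the main phospholipids of animal membranes, and the liver also secretes phosphatidylcholine into bile and on lipoproteins. In the branches named after Kennedy, a kinase phosphorylates choline or ethanolamine, a cytidylyl transferase activates the product with CTP, and a phosphotransferase joins it to diacylglycerol. Hepatocytes have a second route to phosphatidylcholine, in which PEMT methylates phosphatidylethanolamine.

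Signals on the hydrogen water arrays were dimmer, with array medians of 17.2 to 20.2 in the deposited values against 18.9 to 26.8 on the control arrays, and all comparisons were made after quantile normalization. Gapdh signal at the 3′ end over that at the 5′ end, a log2 ratio that rises as RNA breaks down, was 0.38 ± 0.08 with hydrogen water and 0.22 ± 0.10 in controls (SD, n = 4 each). Hepatocyte markers fitted the tissue label: 7 of 8 were measured, and each had a mean signal above that of 98.5% of probe sets. The summed signals of all 9 marker lists, for hepatocytes and other cell types, overlapped between the groups, and no tested marker passed. The filter left 0 adipocyte, 0 skeletal muscle, 1 lymphocyte and 2 cholangiocyte markers to test. All 5 tested stellate cell and fibroblast markers had a negative difference (median -0.17 on the log2 scale), and the endothelial markers Stab2 and Lyve1 differed by 0.42 ± 0.13 and 0.38 ± 0.13 (SE; limma adjusted p = 0.205 and 0.234, n = 4 each), while the other 2 tested endothelial markers had a negative difference. The part of other cell types in the differences of the 8 genes was not tested. In whole liver, fewer cells of a type and less RNA per cell cannot be told apart.

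Transcripts of 2 genes of the choline branch passed the test between the hydrogen water and control arrays. Pcyt1a, the cytidylyl transferase that limits the rate of phosphatidylcholine synthesis, rose 1.74-fold at one probe set and 1.61-fold at the other. With 1 array left out, the call at the first was lost in 1 of 8 fits and that at the second in 6 of 8. Chka, the choline kinase that opens the branch, fell to 0.479 of its control level, a call that was lost in 6 of the 8 fits that left out 1 array. Chpt1, which completes phosphatidylcholine, stood at 1.19 to 1.33 times its control level at its 3 probe sets and did not pass the test. Cept1, which can also complete phosphatidylcholine, stood at 0.864 of its control level and the choline kinase Chkb at 0.982, and neither passed. The genes of the ethanolamine branch, Pcyt2 and Etnk1, and Pemt did not pass either.

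In counts, 3 of the 12 probe sets passed the limma threshold, an adjusted p under 0.05, with 2 higher and 1 lower in the hydrogen water group. The background was 0.825% of the 15521 probe sets tested, 0.445% higher and 0.38% lower. The groups did not overlap at 4 of the 12, against 7.48% of all probe sets tested. The median difference over the 12 was 0.02 on the log2 scale, beside -0.0011 over all probe sets tested. All 12 lay above the filter on dim probe sets, which left out the dimmer 50%. With the Gapdh ratio as a covariate the same 3 passed, and with array brightness as a covariate 0 of the 12 did. Because the contrast was in view when the genes were proposed, nothing is read from these shares.

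**Figure D1:**
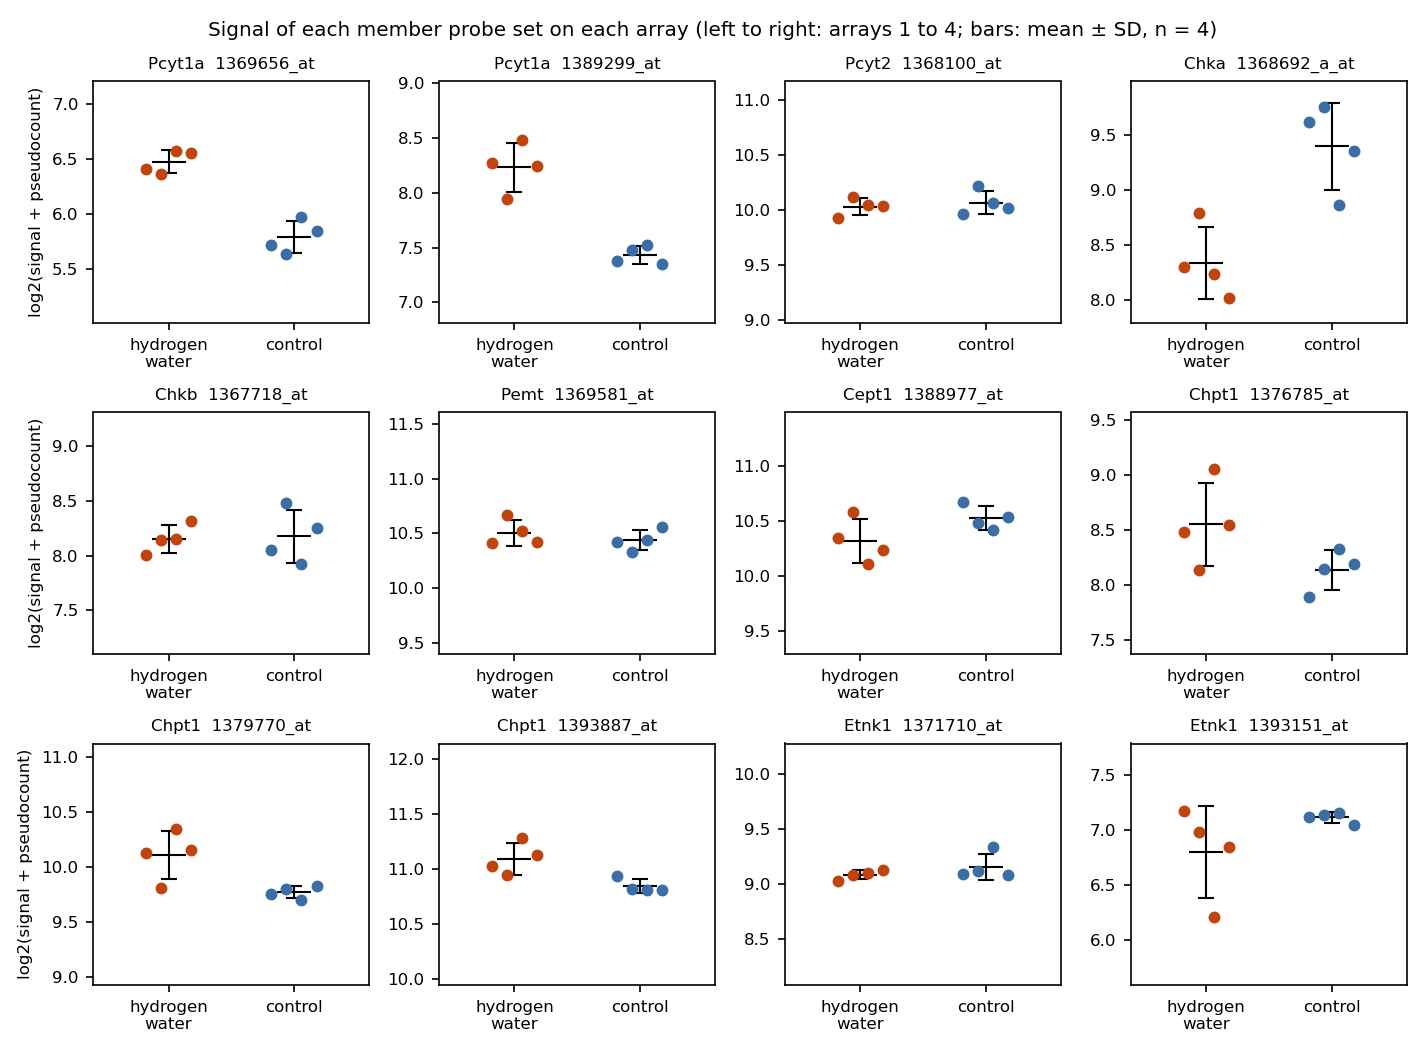
Signal of each of the 12 probe sets on each array, as log2(signal + pseudocount) after quantile normalization; points are arrays 1 to 4 from left to right in each group, and bars give the mean ± SD (n = 4). Each panel spans the same range of log2 units; the groups are apart for both Pcyt1a probe sets, for Chka and narrowly for the third Chpt1 probe set.

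The promoters of the 2 genes that passed, Pcyt1a and Chka, are shown, with that of Chkb, the paralogue of Chka, for comparison. Each run covers 250 bases before to 50 bases after the start of the gene in the RefSeq annotation of the rat assembly GRCr8, 5′ to 3′ in the direction of the gene. Pcyt1a lies at chr11:81862348-81862647 on the minus strand, Chka at chr1:210505865-210506164 on the plus strand and Chkb at chr7:122383900-122384199 on the minus strand. Capitals mark matches on either strand to a CCAAT box (CCAAT), a GC box (GGGCGG), an E-box (CACGTG), an AP-1 site (TGANTCA) or the letters TCACNCCAC, found in sterol regulatory elements.
Pcyt1a: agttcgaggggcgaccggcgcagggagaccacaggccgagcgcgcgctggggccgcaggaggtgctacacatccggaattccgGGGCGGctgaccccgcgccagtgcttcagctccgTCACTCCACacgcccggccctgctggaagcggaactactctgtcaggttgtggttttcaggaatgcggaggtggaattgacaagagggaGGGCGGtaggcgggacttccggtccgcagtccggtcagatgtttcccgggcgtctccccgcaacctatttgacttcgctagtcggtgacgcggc
Chka: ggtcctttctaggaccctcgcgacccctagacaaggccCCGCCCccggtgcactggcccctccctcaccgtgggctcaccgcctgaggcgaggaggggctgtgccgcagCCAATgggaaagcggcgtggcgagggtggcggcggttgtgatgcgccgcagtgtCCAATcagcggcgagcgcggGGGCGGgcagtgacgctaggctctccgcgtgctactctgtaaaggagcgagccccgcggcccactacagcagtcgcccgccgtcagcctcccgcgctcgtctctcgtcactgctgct
Chkb: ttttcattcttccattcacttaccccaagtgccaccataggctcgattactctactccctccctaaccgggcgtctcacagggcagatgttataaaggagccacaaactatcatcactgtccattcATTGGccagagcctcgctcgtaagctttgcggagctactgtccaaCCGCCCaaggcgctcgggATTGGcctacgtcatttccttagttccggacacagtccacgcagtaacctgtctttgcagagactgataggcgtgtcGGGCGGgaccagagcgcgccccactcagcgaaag

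All 8 genes had a promoter in the table. The Pcyt1a window held 2 GC boxes and the match TCACTCCAC, whose first base lay at position -133 from the gene start, and no CCAAT box. Chka and Chkb each held 2 CCAAT boxes and 2 GC boxes, the CCAAT boxes on the strand of the gene in Chka and on the other strand in Chkb. Over the 8 windows, a CCAAT box was found in 5, a GC box in 7 and TCACNCCAC in 1, that of Pcyt1a, with no overlap between motifs. Of all 33469 promoters of that length, 37.5% held a CCAAT box, 33.1% a GC box and 1.12% the letters TCACNCCAC. Those promoters were not limited to genes on the arrays. They were also not matched for the share of G and C, which ran from 54.3% to 73.3% over the 8 windows. Neither an E-box nor an AP-1 site was found in any of the 8 windows, against 6.42% and 7.33% of all promoters. These matches describe the letters of each window, and the motifs were chosen with the differences known.

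Choline kinases come first in the branch. Chka, measured by a probe set of the kind that can bind several transcripts (1368692_a_at), had log2 signals of 8.30, 8.79, 8.24 and 8.02 on hydrogen water arrays 1 to 4, against 9.62, 9.76, 8.86 and 9.35 on control arrays 1 to 4. The groups did not overlap, although hydrogen water array 2 and control array 3 came within 0.1 of each other. The fall was -1.06 ± 0.20 on the log2 scale (SE; limma adjusted p = 0.0402, n = 4 each), lower in 4 of 4 arrays than in any control. In the deposited signals, before any normalization, Chka read 238, 419, 242 and 256 with hydrogen water and 993, 788, 593 and 649 in controls, without overlap. The hydrogen water arrays were dimmer on average. The medians of hydrogen water arrays 2 and 4 (19.7 and 20.2) lay above that of control array 2 (18.9). What part array brightness had in the fall of Chka was not tested. In deposited signals, 14.6% of tested probe sets lay below every control array, among them the second Etnk1 probe set, whose groups overlapped after normalization. The adjusted p rose above 0.05 without hydrogen water array 1 (0.110), 3 (0.105) or 4 (0.111) and without control array 1 (0.101), 2 (0.116) or 4 (0.0950), with the difference between -0.94 and -1.24 in all 8 such fits. It was also above 0.05 under spike-in scaling (0.0532), when the prior had no trend (0.0945) and with array brightness as a covariate (0.129).

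Chkb, the second choline kinase, had log2 signals of 8.00 to 8.32 with hydrogen water and 7.93 to 8.48 in controls. Its groups overlapped in full, with a difference of -0.03 and a 95% interval from -0.31 to 0.26. The sign of that difference turned to 0.02 under spike-in scaling. Whether Chka and Chkb differed in their response was not tested.

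Etnk1, the kinase that is selective for ethanolamine, was measured by 2 probe sets that differed in spread. The first (1371710_at) read 9.02 to 9.13 with hydrogen water and 9.08 to 9.33 in controls, a difference of -0.07 with a 95% interval from -0.25 to 0.12, which turned to 0.0028 under spike-in scaling. At the second (1393151_at), the values were 7.17, 6.98, 6.20 and 6.85 on hydrogen water arrays 1 to 4, against 7.12, 7.14, 7.15 and 7.05 on control arrays 1 to 4. Hydrogen water array 3 was far lower than the rest there, while array 1 was the highest of all 8. The difference of -0.31 ± 0.18 (SE) did not pass.

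The cytidylyl transferases form the second step. Pcyt1a was measured by 2 probe sets, and both rose. At the brighter one (1389299_at), log2 signals were 8.27, 7.94, 8.48 and 8.24 on hydrogen water arrays 1 to 4, against 7.38, 7.48, 7.52 and 7.35 on control arrays 1 to 4. Every hydrogen water array lay above every control array, array 2 least so. The rise was 0.80 ± 0.12 (SE; limma adjusted p = 0.0139, n = 4 each), which placed the probe set 42nd of 15521 by p. With 1 array left out at a time it passed 7 times of 8, missing the threshold without control array 4 (adjusted p = 0.0525).

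At the dimmer Pcyt1a probe set (1369656_at), log2 signals were 6.40, 6.36, 6.57 and 6.56 with hydrogen water, against 5.71, 5.64, 5.97 and 5.84 in controls. These groups were apart as well, by a gap larger than the range within the hydrogen water group. The rise was 0.68 ± 0.13 (SE; limma adjusted p = 0.0339, n = 4 each). With 1 array left out at a time it passed 2 times of 8, without hydrogen water array 2 (0.0480) or control array 3 (0.0298). In the other 6, the adjusted p was 0.0810, 0.102 and 0.107 without hydrogen water arrays 1, 3 and 4, and 0.0890, 0.0994 and 0.0795 without control arrays 1, 2 and 4. The difference kept its sign in all 8, between 0.63 and 0.74.

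The rise of Pcyt1a is relative to the other transcripts on the array. In the deposited signals, its brighter probe set read 234, 230, 289 and 297 with hydrogen water and 209, 163, 233 and 165 in controls, which overlap slightly. The dimmer read 62.7, 75.5, 74.4 and 90.6 with hydrogen water and 65.8, 43.3, 75.9 and 57.3 in controls, which overlap more. Without normalization the differences were 0.45 and 0.33 (limma adjusted p = 0.155 and 0.274), while the median of all probe sets tested lay at -0.33. Of all probe sets called, 4.16% were higher with hydrogen water in that setting, 29.4% under median centring and 70.8% under spike-in scaling, against 53.9% after quantile normalization.

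Pcyt2, the matching enzyme of the ethanolamine branch, had log2 signals of 9.93 to 10.12 with hydrogen water and 9.97 to 10.22 in controls. The groups overlapped, and the difference was -0.04 with a 95% interval from -0.21 to 0.14. Its sign turned to 0.05 under spike-in scaling. A difference as large as that of Pcyt1a lies outside this interval.

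**Figure D2:**
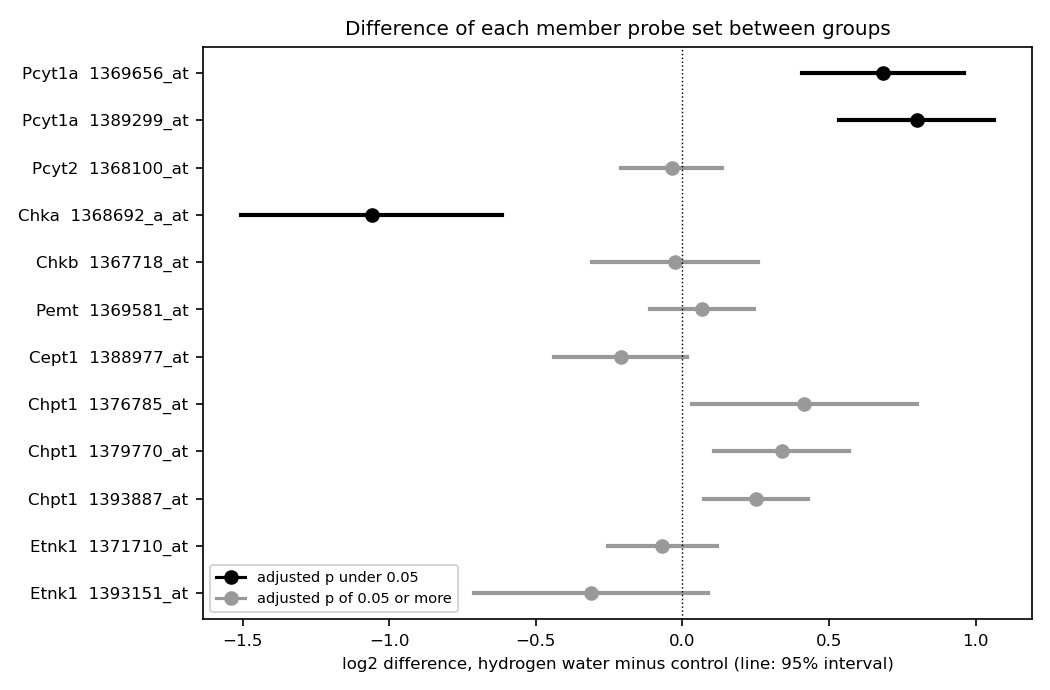
Log2 difference, hydrogen water minus control, for each of the 12 probe sets, with its 95% interval from limma (n = 4 arrays per group); black marks an adjusted p under 0.05 over all 15521 probe sets tested. Both Pcyt1a probe sets lie to the right of 0 and Chka to the left at -1.06, while the 3 Chpt1 intervals lie above 0 without passing after adjustment.

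The phosphotransferases close both branches. Chpt1, the cholinephosphotransferase, was higher at all 3 of its probe sets and passed at none. Its probe set with the smallest p (1379770_at) had log2 signals of 10.13, 9.81, 10.34 and 10.15 on hydrogen water arrays 1 to 4, against 9.76, 9.80, 9.70 and 9.82 on control arrays 1 to 4. Hydrogen water array 2 fell inside the control range and the other arrays of that group above it. The difference was 0.34 ± 0.10 (SE; limma adjusted p = 0.193, n = 4 each), and it passed once when arrays were left out, in the absence of hydrogen water array 2 (adjusted p = 0.0441).

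The brightest Chpt1 probe set (1393887_at) read 11.03, 10.94, 11.28 and 11.13 with hydrogen water and 10.94, 10.82, 10.81 and 10.81 in controls, with hydrogen water array 2 level with control array 1 to 2 decimals. That difference was 0.25 ± 0.08 (SE; adjusted p = 0.208), and it turned to -0.04 without normalization. At the dimmest (1376785_at) the groups overlapped, with values of 8.13 to 9.05 for hydrogen water and 7.89 to 8.33 for controls, and the difference was 0.42 ± 0.17 (SE; adjusted p = 0.357).

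Cept1 joins either choline or ethanolamine to diacylglycerol. Its log2 signals were 10.35, 10.58, 10.11 and 10.23 on hydrogen water arrays 1 to 4, against 10.67, 10.48, 10.42 and 10.54 on control arrays 1 to 4. Hydrogen water arrays 1, 3 and 4 lay below the control range and array 2 inside it. The difference of -0.21 ± 0.10 (SE; limma adjusted p = 0.437, n = 4 each) had a 95% interval from -0.44 to 0.02.

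Pemt, which supplies phosphatidylcholine by methylation in hepatocytes, had log2 signals of 10.41 to 10.67 with hydrogen water and 10.33 to 10.56 in controls. The groups overlapped, and the difference was 0.07 with a 95% interval from -0.11 to 0.24. It turned to -0.23 without normalization, where the median of all probe sets also lay below 0.

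Within the hydrogen water group, array 2 was the nearest of the 4 to the control mean at all 7 probe sets of Pcyt1a, Chka, Chpt1 and Cept1, and array 3 was the farthest at 6 of the 7, the exception being Chka, where array 4 was. This was seen after the values were known and shares the same arrays throughout. At the 5 probe sets of Pcyt2, Chkb, Pemt and Etnk1, array 2 was never the nearest, and at Pemt it was the farthest. Array 3 was the farthest at the second Etnk1 probe set as well. The genes were split in this way with their differences known. Of the 12 probe sets, 4 passed without hydrogen water array 2, and 1, of Pcyt1a, passed without any one of hydrogen water arrays 1, 3 and 4.

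Other genes of phospholipid metabolism were taken from 8 lists by role, 63 genes, of which 56 had a named probe set and 47 passed the filter on dim probe sets. In limma 0 of the 47 passed after adjustment. An unadjusted p under 0.05 was found for 7, against 12.5% of all probe sets tested. Probe sets of these lists whose groups did not overlap are named below, and 7.48% of all probe sets tested had no overlap. With each gene represented by its brightest tested probe set, 29 had a positive difference and 18 a negative one, and the median was 0.01 on the log2 scale.

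Phosphatidylserine is made by base exchange from the same lipids and can be turned back into phosphatidylethanolamine. None of the 3 genes of that route passed. Ptdss2, a phosphatidylserine synthase that uses phosphatidylethanolamine, read 7.66, 7.49, 7.89 and 7.77 with hydrogen water and 7.20, 7.10, 7.33 and 7.34 in controls, without overlap, a difference of 0.46 ± 0.11 (SE; limma adjusted p = 0.0946, n = 4 each). At its other 2 probe sets the groups overlapped, with differences of 0.34 ± 0.24 and 0.17 ± 0.26. Its paralogue Ptdss1, which uses phosphatidylcholine, differed by 0.10 ± 0.11.

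Uptake of choline and ethanolamine was represented by 4 tested genes, and none passed. Flvcr2, a membrane transporter of choline measured by a dim probe set, read 4.76, 5.26, 4.35 and 4.82 with hydrogen water and 5.57, 6.18, 5.88 and 5.51 in controls, without overlap, a difference of -0.99 ± 0.22 (SE; limma adjusted p = 0.0726, n = 4 each). The choline transporter Slc44a1 differed by 0.22 ± 0.14 and, at its second probe set, by 0.12 ± 0.10. The single tested gene among the other branch enzymes, Selenoi, an ethanolaminephosphotransferase, differed by 0.11 ± 0.13.

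Diacylglycerol, the acceptor of both branches, is released from phosphatidate by lipins. None of the 12 genes of its supply passed. Lpin1 read 11.57, 10.42, 10.95 and 10.47 with hydrogen water and 9.57, 9.35, 10.80 and 8.63 in controls, where control array 3 lay within the hydrogen water range, a difference of 1.26 ± 0.39 (SE; adjusted p = 0.195). Its second probe set differed by 1.11 ± 0.38, and Lpin2 by 0.49 ± 0.17.

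Phospholipids made from CDP-diacylglycerol, a parallel use of CTP, were covered by 5 tested genes, and none passed. Crls1, cardiolipin synthase, differed by -0.78 ± 0.18 without overlap between groups at its brighter probe set (limma adjusted p = 0.0803, n = 4 each) and by -0.47 ± 0.24, with overlap, at the other (adjusted p = 0.451). Cdipt, phosphatidylinositol synthase, differed by -0.05 ± 0.10. Genes of methyl group metabolism or choline oxidation, 6 in number, did not pass either. The methyltransferases Gnmt and Bhmt differed by 0.22 ± 0.16 and 0.28 ± 0.21.

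Remodelling and breakdown held 11 tested genes, none past the threshold. Lpcat3, which reacylates lysophospholipids, differed by -0.21 ± 0.07 without overlap at its brighter probe set and by -0.07 ± 0.09 at the other (SE). The phospholipase Pld1 differed by -0.40 ± 0.15, and by -0.33 ± 0.17 and -0.32 ± 0.30 at its other probe sets. Among 5 genes of transfer and export, none passed. Pitpnb, a phosphatidylinositol transfer protein, differed by 0.14 ± 0.08 without overlap, and the transfer protein Stard10 by 0.03 ± 0.05.

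**Figure D3:**
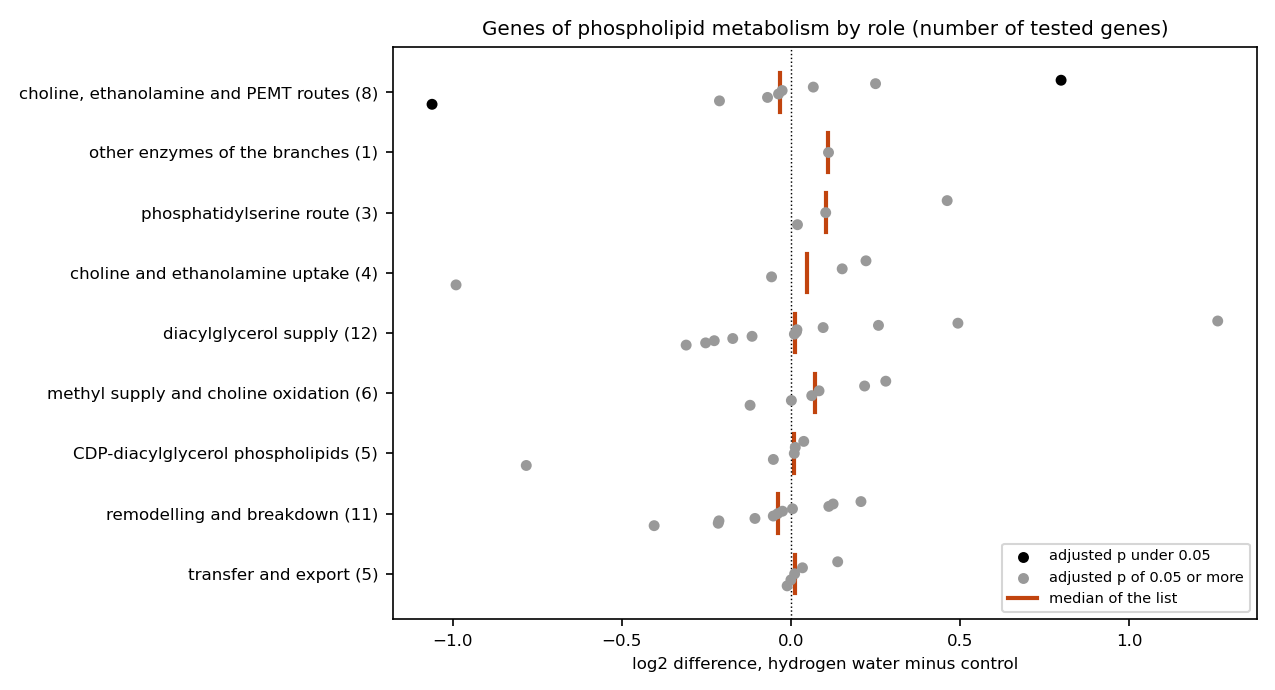
Log2 difference, hydrogen water minus control, of each tested gene by role, each gene at its brightest probe set; the bar marks the median of the list and the number of genes stands in brackets. Pcyt1a and Chka are the points past the threshold, and the 47 genes of the other lists spread from -0.99 (Flvcr2) to 1.26 (Lpin1) without passing.

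With the group means removed, the probe sets of other named genes whose log2 values ran most alike the brighter Pcyt1a probe set over the 8 arrays were those of Bicral, Slc16a10 and Ap4s1, each with a Pearson r of 0.98, out of 12230 compared. They share its arrays and normalization, and this likeness is a description. In the difference between groups, Slc16a10, an aromatic amino acid transporter, lay at 0.69 ± 0.39 (SE), Bicral at 0.14 ± 0.23 and Ap4s1 at -0.04 ± 0.14.

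**Figure D4:**
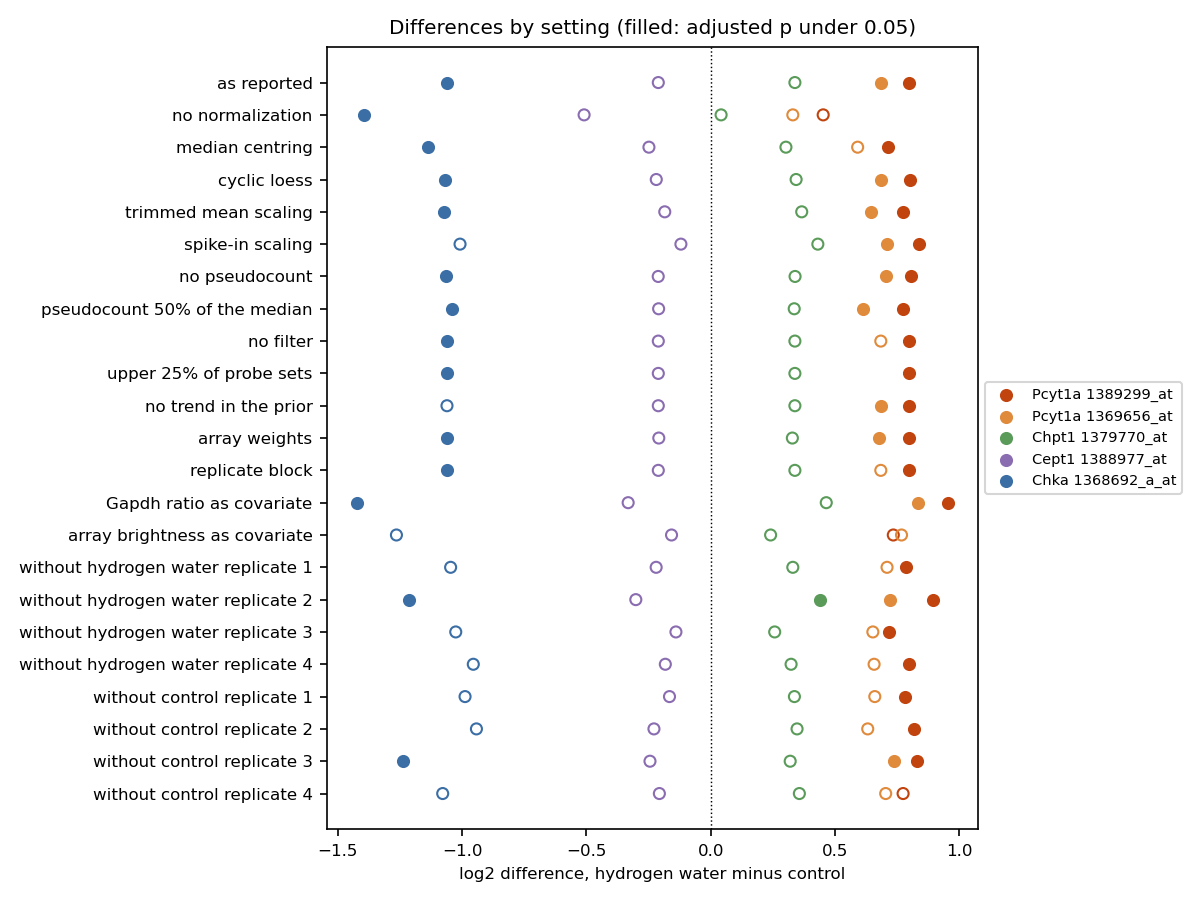
Log2 difference, hydrogen water minus control, of 5 probe sets under each setting, filled where the adjusted p is under 0.05; the dimmer Pcyt1a probe set has no point with the upper 25% of probe sets, which leaves it out. Chka stays to the left of 0 and both Pcyt1a probe sets to the right in every setting shown, while their calls come and go as arrays are left out.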

How the data were processed

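Per the labels' protocols, biotinylated cRNA was made from total liver RNA for Affymetrix arrays. The deposited values are intensities on a linear scale, made by the authors with MAS5, per the submitters' processing notes. Detection calls, version and scaling target were not given in the sources used here. Array medians showed no common scale.

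The 31042 probe sets other than 57 controls were quantile-normalized, a pseudocount of 2.05 (10% of the overall median, 20.5) was added, and log2 was taken, so fold changes are on that scale and understate those of dim probe sets. The 15521 with a mean at or above the median were tested with limma 3.58.1 (R 4.3.3; lmFit, then eBayes with a trend in the prior variance), with Benjamini-Hochberg adjustment over all of them. SEs of differences come from this fit. The limma fit and the adjustment were tested on values simulated around the normalized means, and the normalization, pseudocount and filter were not.

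Symbols came from the platform annotation, and 20826 probe sets carried a single one. The genes, lists and motifs were chosen with earlier results of these data known. The rule for named genes took all 8 genes with every probe set and, from each wider list, genes past the threshold or else the 2 with the smallest p. Alternatives were other normalizations, pseudocounts and filters, no trend, array weights, a replicate block, covariates and leaving out each array. The number of arrays limits the precision.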

Additional observations from a re-analysis of the deposited data

Results flagged for a closer look

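Over the 24 groups of 4 arrays formed by the 12 probe sets, 2 held an array far from the others, measured as the gap to its nearest neighbour over the range of the group. Control array 1 stood above the other controls at the brightest Chpt1 probe set (1393887_at), with a gap of 0.918 of the range. Control array 3 stood above the other controls at the first Etnk1 probe set (1371710_at), with a gap of 0.851 of the range. Chance gives about 1 such group in 20.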

How the results depend on the processing

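The count of all probe sets past the threshold, 128, was 505 without normalization, 64 when the prior had no trend, 239 with the Gapdh ratio as a covariate and 12 with array brightness as a covariate, the last added after seeing the data, and ran from 55 to 197 when an array was left out. Of the 12 probe sets of the 8 genes, 3 passed; the count was 1 without normalization (Chka), 0 with array brightness as a covariate, and 0 to 4 when an array was left out: 1 without hydrogen water array 1, 3 or 4 or control array 1 or 2, in each case the brighter Pcyt1a probe set, and 0 without control array 4. With array brightness as a covariate, Chka and the brighter Pcyt1a probe set stood at -1.26 and 0.73 with adjusted p-values of 0.129 and 0.143. The sign turned for Pcyt2 under spike-in scaling (0.0454) and among the fits without 1 array (-0.0697 to 0.0131), for Chkb under spike-in scaling (0.0170) and among the fits without 1 array (-0.109 to 0.0757, positive without hydrogen water array 1 and without control array 2), for Pemt without normalization (-0.23), for the brightest Chpt1 probe set without normalization (-0.0385), and for the first Etnk1 probe set under spike-in scaling (0.0028) and with array brightness (0.0104). None of these was called in any setting, and the cause was not tested. The dimmer Pcyt1a probe set also missed the threshold under median centring (0.59, adjusted p = 0.0793) and without a filter (adjusted p = 0.0641). Whether equal replicate numbers pair the arrays is not in the labels. Deviations from the group means correlated at -0.10 to 0.19 between arrays of equal number, which cannot exclude a pairing. With the replicate number as a block, 181 probe sets passed, 2 of them of these genes, the dimmer Pcyt1a probe set missing the threshold (adjusted p = 0.0531). Without detection calls, how far dim signals lie above background is not known.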
